A study of Mus musculus with 12 samples.

Results

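Methylation at 10 tumor suppressor genes, whose promoters are often methylated in human oral carcinoma, was followed in oral tissue of mice exposed to DBP (dibenzo[def,p]chrysene, also called dibenzo[a,l]pyrene), a carcinogen of tobacco smoke. They were Cdkn2a, Cdkn2b, Trp53, Trp73, Rassf1, Dapk1, Fhit, Cdh1, Timp3 and Rarb, that is 10 of 22380 protein-coding genes of the GENCODE vM1 annotation of mm9. Each was taken from 2000 bp before its annotated start to its end. That span held 3587 of the 4446809 CpGs read in any of the 12 samples, both strands of a CpG being summed. Of these 3587, 998 had 10 or more reads in at least 1 sample and 13 had 10 or more reads in all 12.

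The samples were DNA from oral soft tissues (buccal mucosa, floor of the mouth and the soft tissue on the hard palate, combined) of female B6C3F1/J mice that were 8 weeks old at the start and ate an AIN-93M diet. The 3 DMSO samples came from mice given the vehicle and the 3 DBP samples from mice given 24 nmol of DBP topically in the mouth, 3 times per week for 5 weeks, with sacrifice 48 h after the last dose. In 3 further samples DBP was combined with an unnamed chemopreventive agent (below, the agent), and in the last 3 with an agent labelled BR extract; dose and schedule of the agents are not stated in the labels. The tissue was described by the submitters as histologically normal, it mixes epithelium with the other cells of the mouth, and the labels do not say whether a sample is a single mouse, so the spread between samples may be partly technical.

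Methylation was measured by enhanced reduced representation bisulfite sequencing (ERRBS). DNA is cut with MspI at CCGG, treated with bisulfite and sequenced, and every read of a CpG gives a call, methylated or unmethylated. The samples held 3287367 to 7774032 calls for DMSO, 7515975 to 7974299 for DBP, 16908728 to 39615620 for DBP with the agent and 17712547 to 78889043 for DBP with BR extract. Depth therefore followed the agent groups, and the effects of depth and of the agents cannot be told apart. Sample 1 of the BR extract group was the deepest, DMSO sample 3 the shallowest. The share of methylated calls in whole samples was 32.9 to 41.3% (DMSO), 34.0 to 36.7% (DBP), 30.7 to 35.6% (agent) and 29.3 to 39.3% (BR extract). The files analysed here hold methylation and no expression values, so the labelled tissue could be checked against cell type markers only by promoter methylation, which does not identify cells: of 18 marker promoters 4 had enough calls to be tested, from 11.7% for Des (muscle) to 88.5% for Krt4 (squamous epithelium), and none of the 5 leukocyte markers did.

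In mammals most CpGs are methylated, while CpG islands at gene starts are usually free of methylation. In a tumor such an island can gain dense methylation, and the gene is then silenced. Cdkn2a encodes p16INK4a and ARF, which act on the RB and p53 pathways, Cdkn2b the CDK4/6 inhibitor p15INK4b, Trp53 the transcription factor p53, and Trp73 its relative p73. Rassf1 encodes a scaffold of the RAS and Hippo pathways, Dapk1 a kinase of apoptosis and autophagy, and Fhit a diadenosine triphosphate hydrolase at a fragile site. Cdh1 encodes E-cadherin, the adhesion molecule of epithelia, Timp3 a matrix-bound inhibitor of metalloproteinases, and Rarb the retinoic acid receptor β.

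In mm9 the genes lie as follows. On chromosome 4, minus strand, are Cdkn2a at chr4:88920377-88940557, Cdkn2b at chr4:88952198-88956941 and Trp73 at chr4:153430358-153514317. On plus strands are Trp53 at chr11:69393861-69405375, Rassf1 at chr9:107453886-107464594, Dapk1 at chr13:60703308-60864546, Cdh1 at chr8:109127251-109194146 and Timp3 at chr10:85763117-85812251. Fhit at chr14:10382606-11994549 and Rarb at chr14:17263356-17651381 are on the minus strand.

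The stretches below lie before starts and outside annotated exons. In reads pooled over all samples, their CpGs outside the enzyme's own site were at 2.504% or less, except in Dapk1, where they reached 20%. They are mm9 reference sequence in the direction of the gene, 5′ to 3′, in lower case, with each CG in capitals, and all 4 letters of CCGG in capitals wherever the CG is part of the MspI site. The first is the 200 bp before the start of Cdkn2a (the ARF start), chr4:88940558-88940757 on the minus strand.
Cdkn2a: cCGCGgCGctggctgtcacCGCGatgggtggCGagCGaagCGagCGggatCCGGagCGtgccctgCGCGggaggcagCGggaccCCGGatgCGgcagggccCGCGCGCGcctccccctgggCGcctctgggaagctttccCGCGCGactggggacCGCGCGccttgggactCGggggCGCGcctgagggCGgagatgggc
The second is the 200 bp before the start of Dapk1, chr13:60703108-60703307 on the plus strand.
Dapk1: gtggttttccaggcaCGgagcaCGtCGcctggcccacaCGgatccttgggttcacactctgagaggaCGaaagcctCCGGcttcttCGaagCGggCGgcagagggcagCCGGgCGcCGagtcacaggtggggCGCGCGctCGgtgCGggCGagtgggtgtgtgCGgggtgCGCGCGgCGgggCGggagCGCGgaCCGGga
The next is the 200 bp before the start of Rassf1, chr9:107453686-107453885 on the plus strand, which holds no MspI site.
Rassf1: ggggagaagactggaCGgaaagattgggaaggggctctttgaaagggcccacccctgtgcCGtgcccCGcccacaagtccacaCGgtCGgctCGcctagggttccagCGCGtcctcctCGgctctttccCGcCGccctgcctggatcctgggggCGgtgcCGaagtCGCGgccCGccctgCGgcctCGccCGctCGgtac
The last 2 hold 11 of the 13 CpGs with 10 or more reads in all 12 samples, 4 before the start of Trp73 (chr4:153514497-153514567, minus strand) and 7 before an internal start of Rarb, that of transcript Rarb-202 (chr14:17408186-17408286, minus strand).
Trp73: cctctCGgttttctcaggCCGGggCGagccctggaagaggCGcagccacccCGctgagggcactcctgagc
Rarb: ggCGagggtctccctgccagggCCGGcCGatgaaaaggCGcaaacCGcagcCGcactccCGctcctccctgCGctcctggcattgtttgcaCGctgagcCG

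The Cdkn2a stretch has 31 CpGs. The 29 CpGs outside CCGG were at 0 to 0.939% over 6495 reads, while the 2 inside CCGG were at 15.4 and 33.7% over 630 reads. In the Trp73 stretch 4 CpGs outside CCGG were at 0 to 0.759% (2023 reads) and the CpG inside CCGG at 31.1% (602 reads). In the Rarb stretch 9 CpGs outside were at 0 to 2.504% (3891 reads) and that inside at 25.5% (588 reads). Of the Rassf1 stretch, 19 CpGs were read and none of 236 reads was methylated, which allows up to 1.27% (3 reads of the total, counting error only). The Dapk1 stretch was less uniform, with 21 CpGs outside CCGG at 0 to 20% (1257 reads) and 3 inside at 5.56 to 47.5% (427 reads).

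Of the 10 promoters, 6, taken as 1000 bp on either side of the gene start, had 20 or more calls in all 12 samples, and these 6 were methylated at a low level. Means over 12 samples were 4.55% ± 1.31 for Cdkn2a, 6.10% ± 2.33 for Dapk1, 6.59% ± 1.62 for Trp73, 6.60% ± 1.84 for Timp3, 8.15% ± 3.29 for Trp53 and 11.4% ± 2.12 for Cdh1 (SD, n = 12). No neighbours in this order differed by more than the larger of their SDs. Cdkn2b stood at 5.38% ± 1.49 (SD, n = 11), DMSO sample 3 having only 3 calls there. Over all 10507 promoters tested, the median of the mean level was 5.93% and 80.8% of promoters were under 10%, so the low level of these genes was that of most promoters.

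**Figure D1:**
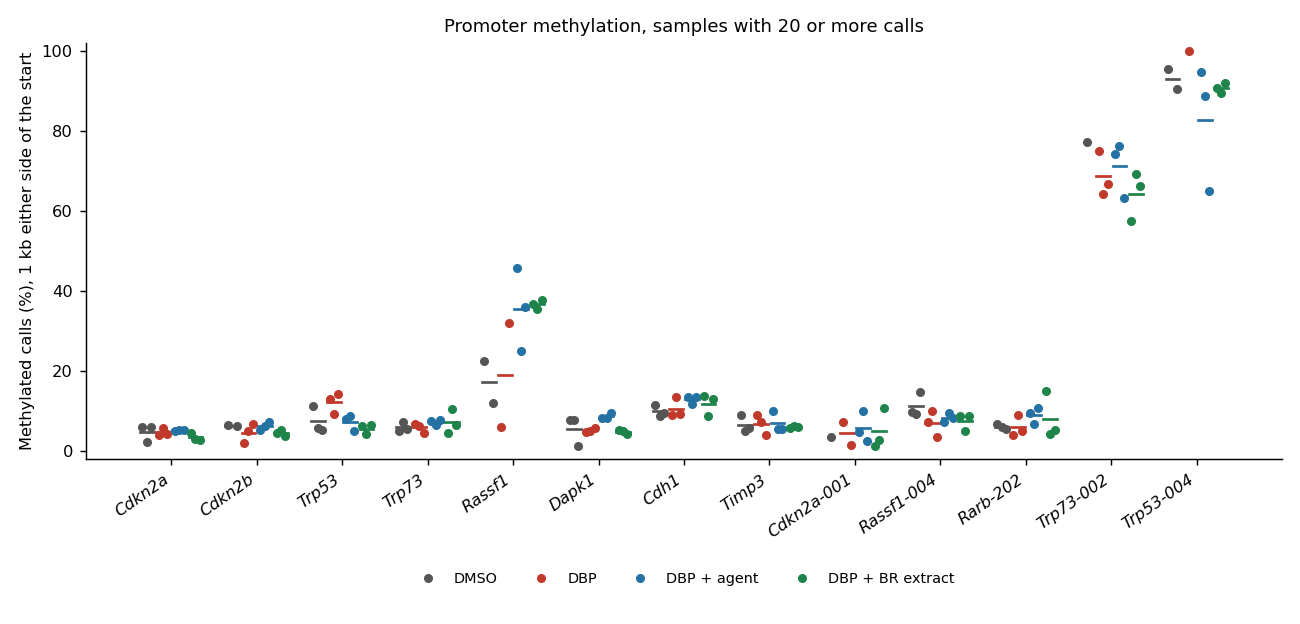
Methylated calls in percent, 1 kb on either side of gene starts and of 5 internal starts, for each sample with 20 or more calls; points are samples in 4 groups and bars are group means where there is more than 1 sample. Promoters of Cdkn2a, Cdkn2b, Trp53, Trp73, Dapk1, Cdh1 and Timp3 lie at or under 14.3% in every sample shown, whereas Rassf1 reaches 45.7% and the internal starts Trp73-002 and Trp53-004 lie above 57%.

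The other 3 promoters were covered too thinly or unevenly for the test. Rassf1 had 978 calls in all and 10 samples with 20 or more, at 29.0% ± 12.4 (SD, n = 10), from 6.15 to 45.7%. This was a mixture along the window. Calls 1000 to 750 bp before the start were 67.0% methylated (400 calls) and those 500 to 250 bp before it 95.2% (42 calls), against 0 of 240 calls in the last 250 bp and 3.44% of 262 calls in the first 250 bp after the start. The Fhit promoter has 2 MspI sites and had 33 calls in all 12 samples, 6.06% of them methylated. The Rarb gene start is CpG-poor, with 8 CpGs and 1 MspI site, and was read only in BR extract sample 1, at 20 of 22 calls (90.9%, Wilson 95% interval 72.19 to 97.47%, counting error only). By comparison, the Cdkn2a window holds 167 CpGs and 23 MspI sites, and over all 22380 protein-coding promoters the medians were 60 CpGs and 6 sites.

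**Figure D2:**
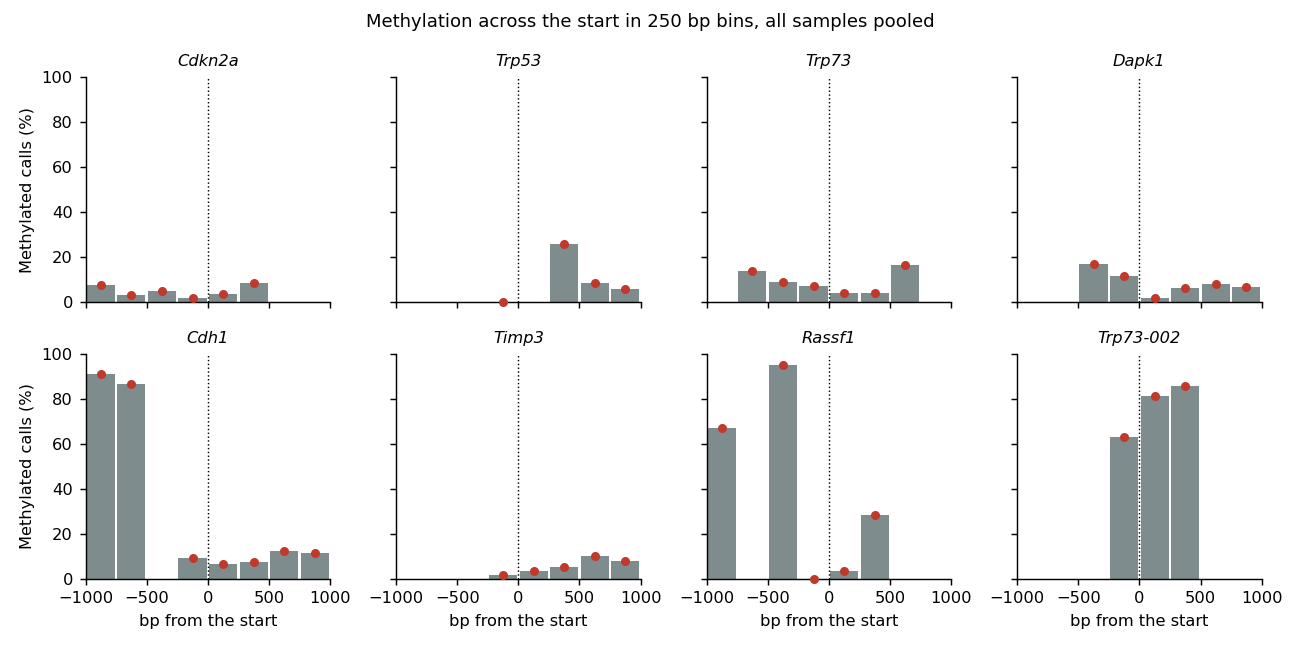
Methylated calls in percent against the distance from the start in bp, in 250 bp bins, all 12 samples pooled, for 7 gene starts and the internal start Trp73-002; bars end in a point, and bins with under 20 calls are left blank. Cdkn2a, Timp3, Trp73 and Dapk1 stay under 17%, Cdh1 and Rassf1 are methylated at 67.0 to 95.2% in their distal upstream bins, and Trp73-002 is methylated on both sides of its start.

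Levels changed along the window in Cdh1 too. It was at 91.0% in the bin 1000 to 750 bp before its start (366 calls at 1 CpG) and at 6.77% in the first 250 bp after it (1493 calls). Calls for the Trp53 promoter came almost wholly from 500 to 1000 bp after the start, inside the gene, where 8.40% of 1428 calls and 5.86% of 1586 calls were methylated; the 250 bp before the start had 24 calls, none methylated. The window of Trp53 also overlaps Wrap53, that of Rassf1 Zmynd10 and that of Timp3 Syn3, so these levels belong to both genes of a pair.

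Internal starts of these genes differed strongly from each other. The start of Cdkn2a-001, which lies about where p16INK4a begins (chr4:88928096), was at 4.97% ± 3.56 (SD, n = 9), and that of Rassf1-004 (chr9:107456987) at 8.53% ± 2.79 (SD, n = 12). The start of Rarb-202 (chr14:17407986) was at 7.34% ± 3.22 (SD, n = 12), unlike the CpG-poor first start of that gene. By contrast Trp73-002 (chr4:153471282, overlapping Gm13116) was at 69.0% ± 6.54 (SD, n = 10) and Trp53-004 (chr11:69402197, a noncoding transcript) at 89.5% ± 9.93 (SD, n = 9). The methylated starts were poorer in CpGs, with observed over expected CpG ratios of 0.266 and 0.372. Those of Cdkn2a-001, Rarb-202 and Rassf1-004 were 0.524, 0.574 and 0.748, and that of the Cdkn2a gene start was 0.88.

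In the covered promoters methylated calls lay mostly at CpGs inside CCGG. Pooled over samples, CpGs inside CCGG were methylated at 24.6% in the Cdkn2a promoter, 25.4% in Trp53, 27.3% in Timp3, 27.6% in Trp73, 31.3% in Dapk1, 33.7% in Cdkn2b and 38.5% in Cdh1. All other CpGs of the same windows were at 1.11, 0.787, 0.790, 1.51, 1.32, 0.706 and 1.75%, in that order. The same held at the internal starts Rassf1-004 (33.8 against 0.594%) and Rarb-202 (31.2 against 2.58%). Among promoter CpGs of the 10 genes with 10 or more reads in some sample, 340 of 353 outside CCGG were under 10% and 3 of 75 inside it were.

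**Figure D3:**
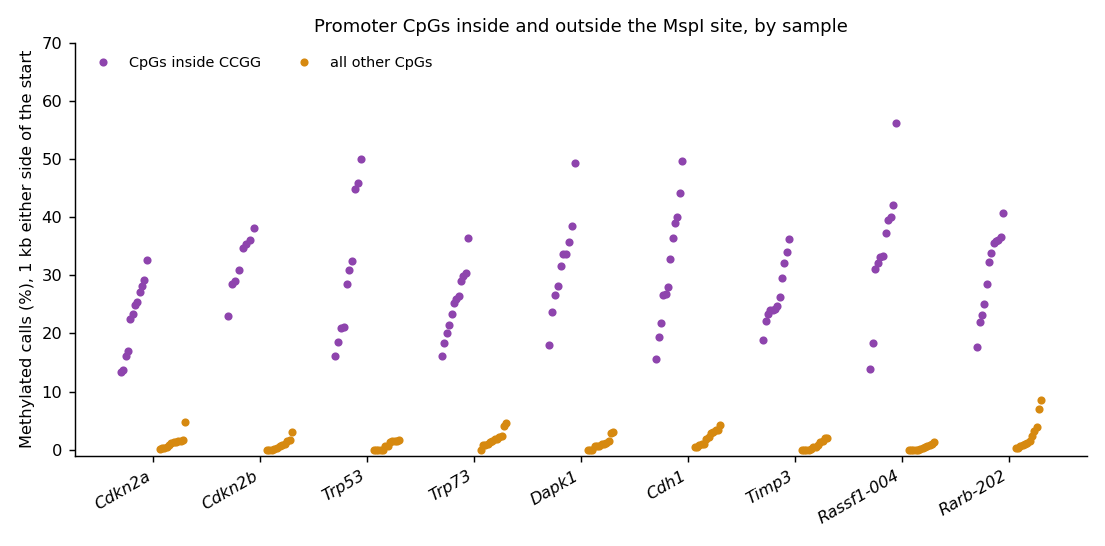
Methylated calls in percent for CpGs inside the MspI site CCGG and for all other CpGs of 7 gene-start and 2 internal-start windows, a point for each sample with 20 or more calls of that kind, sorted by value. In each of the 9 windows the lowest inside value exceeds the highest outside value; for Cdkn2a these are 13.3 and 4.76%.

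This was not particular to these genes. Over all protein-coding promoters, calls inside CCGG were 31.6% ± 1.88 methylated and calls outside 2.71% ± 0.460 (SD, n = 12), and in gene bodies they were 70.1% ± 0.965 and 42.0% ± 3.81 (SD, n = 12). Over the 10507 promoters tested, the median level fell from 5.93% to 0.747% once CpGs inside CCGG were left out. CpGs inside CCGG lie at the ends of MspI fragments, and the part of library preparation in their level was not tested. Differences in level between groups are given below for all CpGs and, for the 6 promoters tested, also for CpGs outside CCGG, a choice made after seeing the data.

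Gene bodies, from 1 kb past the start to the end, covered the whole range. Fhit was the most methylated at 85.5% ± 2.37 (SD, n = 12), followed by Dapk1 at 78.0% ± 2.81, Cdh1 at 57.7% ± 4.38 and Trp73 at 53.9% ± 4.45 (each SD, n = 12), Rarb at 21.3% ± 12.6, Rassf1 at 11.5% ± 4.09 and Cdkn2a at 7.35% ± 4.27. Cdh1 and Trp73 differed by less than the larger of their SDs, as did Rarb and Rassf1, and Rassf1 and Cdkn2a. Trp53 was at 53.5% ± 16.4 (SD, n = 11) and Timp3 at 54.7% ± 12.4 (SD, n = 6), and Cdkn2b had 93 calls in all. Over the 8845 bodies tested, the median was 72.3% and 5.29% were under 10%, so the Cdkn2a body was among the least methylated; the calls of the Rassf1 and Rarb bodies came mostly from the internal starts described above.

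**Figure D4:**
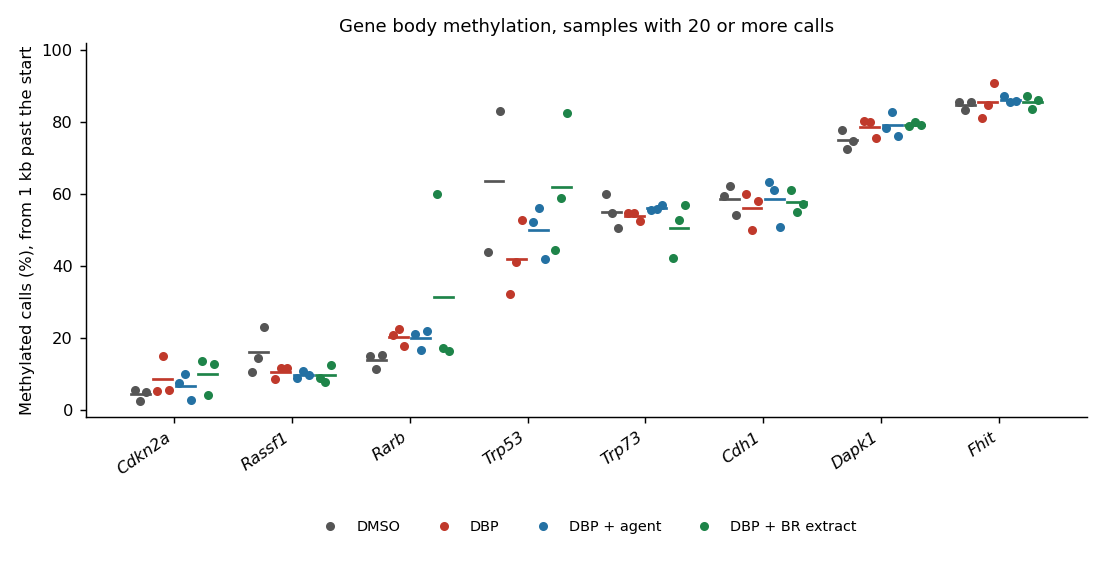
Methylated calls in percent for the bodies of 8 genes, from 1 kb past the start to the end, for samples with 20 or more calls; points are samples in 4 groups and bars group means. Fhit and Dapk1 lie above 72% and Cdkn2a under 15% in every sample, and the BR extract sample 1 of Rarb at 60.04% stands apart from 11 samples at 11.2 to 22.4%.

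The first comparison asked whether DBP alone changed methylation at these genes. None of the 6 promoters and none of the 7 bodies that could be tested passed the test between DBP and DMSO (edgeR quasi-likelihood test over all regions, FDR under 0.05). The background was empty as well: 0 of 10507 promoters and 0 of 8845 bodies were called (percent called 0.0 in each), with 318 and 327 at an unadjusted p under 0.05, which is 3.03 and 3.7% of those tested. None of the 6 promoters and 7 bodies tested among the 10 genes reached that unadjusted threshold. Over the 6 promoters the median log2 odds ratio was 0.02, against -0.06 over all promoters, and 3 of 6 were higher in DBP. Over the 7 bodies it was 0.12, against -0.07 over all bodies, and 4 of 7 were higher.

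For Cdkn2a, the DMSO samples held 6.07, 2.19 and 6.08% methylated promoter calls and the DBP samples 4.11, 5.83 and 4.30%. The groups overlapped, with means of 4.78% ± 2.24 and 4.75% ± 0.938 (SD, n = 3 each). The log2 odds ratio was -0.02 with a 95% interval of -0.84 to 0.80, so that with DMSO at 4.78% a DBP level of 2.73 to 8.06% lay inside the interval. Outside CCGG the means were 2.25% ± 2.23 and 0.915% ± 0.539 (SD, n = 3 each), a difference of -1.34 points, and the groups overlapped there too. For Timp3 the groups were at 9.04, 4.98 and 5.81% (DMSO) and 9.02, 7.30 and 3.98% (DBP), a log2 odds ratio of 0.04 (-0.80 to 0.89). For Trp73 they were at 5.07, 7.18 and 5.50% and at 6.91, 6.25 and 4.63%, a log2 odds ratio of -0.01 (-0.73 to 0.70). Outside CCGG the differences were 0.12 points for Timp3 and 0.52 points for Trp73, each less than the larger SD of the groups.

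The Cdh1 promoter was at 11.5, 8.86 and 9.57% in DMSO and 9.14, 13.4 and 9.19% in DBP, with a log2 odds ratio of 0.05 (-0.83 to 0.94). The Dapk1 promoter was at 7.74, 7.89 and 1.18% in DMSO and 4.78, 5.13 and 5.84% in DBP, a log2 odds ratio of -0.05 (-1.30 to 1.19). On all CpGs the groups overlapped for both. Outside CCGG the Cdh1 difference had the opposite sign: DMSO samples were at 2.99, 4.26 and 3.45% and DBP samples at 0.840, 2.25 and 0.529%, which did not overlap. The means there were 3.57% ± 0.639 and 1.21% ± 0.915 (SD, n = 3 each), a difference of -2.36 points in place of 0.60, and no promoter was called in the edgeR fit to those CpGs. The Dapk1 values in DMSO rested on 155, 38 and 85 calls. The Dapk1 difference was 0.24 points outside CCGG and 6.37 points on CpGs read in all 12 samples, in place of -0.36.

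With all CpGs pooled, Trp53 had the largest difference of the 6 promoters, whereas outside CCGG that of Cdh1 was larger and on CpGs read in all 12 samples that of Dapk1. DMSO samples were at 11.2, 5.88 and 5.26% and DBP samples at 13.0, 9.32 and 14.3%, with means of 7.46% ± 3.28 and 12.2% ± 2.59 (SD, n = 3 each). The groups overlapped, since DMSO sample 1 lay above DBP sample 2, and the difference of 4.75 points had an exact two-sided permutation p of 0.2, where 3 against 3 samples cannot go below 0.1. The log2 odds ratio was 0.59 (SE 0.62, 95% interval -0.69 to 1.88), with an FDR of 1.00. The DMSO samples rested on 89, 34 and 38 calls. Outside CCGG the difference was 1.52 points. DBP samples were at 1.47, 1.65 and 1.45% (1.52% ± 0.112, SD, n = 3) and no DMSO call was methylated, so the groups did not overlap. This difference lay inside the -7.26 to 4.97 points of the central 95% of all promoters tested, outside CCGG. The share of all promoters without overlap there was not counted. The DBP samples had 351 and the DMSO samples 161 promoter calls of both kinds between them. Over all 12 samples 18 of 2287 calls outside CCGG were methylated. The DBP values therefore rest on few methylated calls, and their SD says little about precision.

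**Figure D5:**
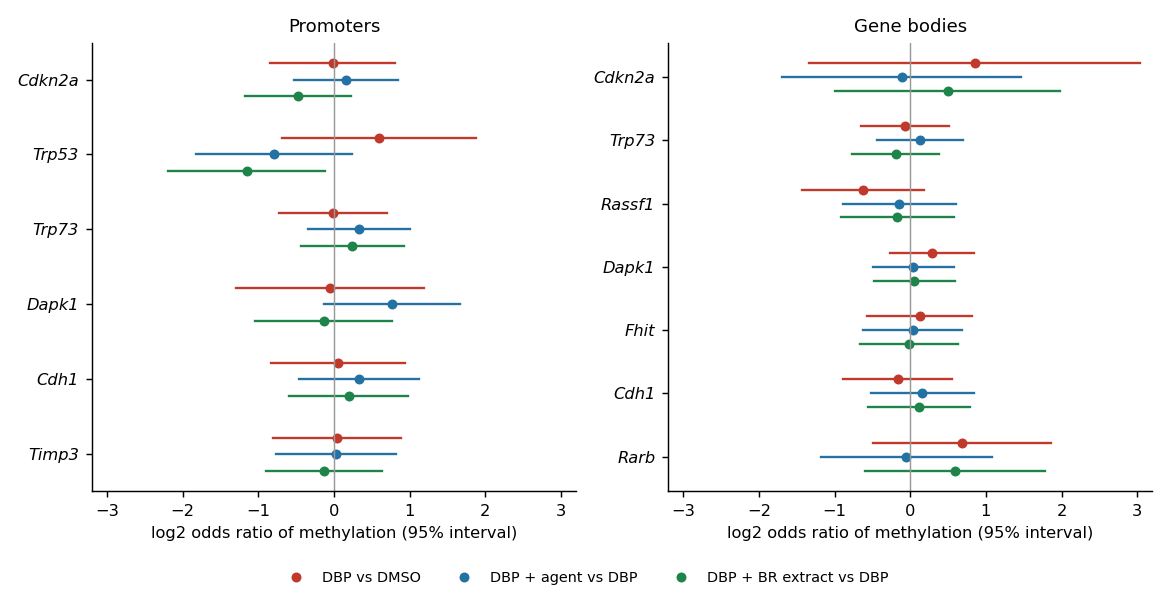
Log2 odds ratio of methylation with its 95% interval from the edgeR fit, for the 6 promoters (left) and 7 bodies (right) tested, in 3 comparisons; values above 0 are higher in the group named first. All intervals include 0 except that of the Trp53 promoter in DBP with BR extract against DBP (-2.19 to -0.12).

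Of the 7 bodies, 1 did not overlap between DBP and DMSO, against 12.6% of all bodies tested (5.12% higher in DBP and 7.44% lower). It was Rarb, at 15.0, 11.2 and 15.2% in DMSO and 20.8, 22.4 and 17.8% in DBP, a difference of 6.51 points with an exact two-sided permutation p of 0.1, the smallest that this design allows. The log2 odds ratio was 0.68 (SE 0.56, edgeR FDR 0.998). The difference depended on which CpGs were pooled, being 7.22 points outside CCGG but -0.61 points on CpGs read in all 12 samples. On all CpGs, no promoter of the 6 was without overlap, against 10.8% of all promoters (4.81% higher and 6.0% lower).

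The Cdkn2a body was at 4.24% ± 1.67 in DMSO and 8.504% ± 5.47 in DBP and the Rassf1 body at 15.9% ± 6.46 and 10.6% ± 1.72 (SD, n = 3 each), with log2 odds ratios of 0.85 (-1.33 to 3.04) and -0.62 (-1.42 to 0.18). The Dapk1 body was at 75.0% ± 2.62 and 78.6% ± 2.64, the Fhit body at 84.8% ± 1.25 and 85.6% ± 4.89, the Trp73 body at 54.9% ± 4.72 and 53.9% ± 1.299 and the Cdh1 body at 58.5% ± 4.19 and 55.9% ± 5.24. Every one of these groups overlapped. At the internal starts, Rarb-202 was at 6.13% ± 0.634 in DMSO and 6.03% ± 2.65 in DBP and Rassf1-004 at 11.2% ± 3.16 and 7.03% ± 3.32, with exact two-sided permutation p of 1.0 and 0.3.

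Single CpGs were also compared between DBP and DMSO, with a logistic model on reads scaled to equal median coverage, as differentially methylated sites (DMS; q under 0.01 and a difference over 10 points). Here the minimum of 10 reads was applied to each strand before strands were summed. Only 22 CpGs of 4 genes passed it in all 6 samples, 8 in Timp3, 7 in Rarb, 5 in Trp73 and 2 in Cdh1. None was a DMS, against 59 of 53618 CpGs overall (0.11%). The Rarb CpG inside CCGG in the stretch printed above, 276 bp before the start of Rarb-202 (chr14:17408262), was at 35.5, 50 and 25% in DMSO and 17.5, 30.4 and 8.70% in DBP, with q = 0.064. Its 6 neighbours with reads in all samples stayed under 3% in the pooled reads. This model treats reads as independent, and its q values do not cover the spread between samples. The scaling also gives shallower samples more reads than were sequenced, so the q values do not fully cover the counting of reads either.

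The next comparisons asked whether methylation differed when an agent was given with DBP. Both used the same DBP samples. At FDR under 0.05 no promoter and no body was called in either, neither among the 10 genes nor in the background (percent called 0.0 for promoters and for bodies). At an unadjusted p under 0.05, 223 promoters and 270 bodies passed for the agent and 404 and 334 for BR extract, with 1 promoter of the 6, Trp53 for BR extract, and no body of the 7 among them.

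The Trp53 promoter did not pass the test in either comparison. It was at 8.10, 8.85 and 4.93% with the agent and 6.27, 4.17 and 6.43% with BR extract, all below the lowest DBP sample at 9.32%, and the DMSO samples spanned 5.26 to 11.2%. The differences from DBP were -4.92 and -6.59 points, each with an exact two-sided permutation p of 0.1, the smallest possible. The log2 odds ratios were -0.79 (SE 0.50, 95% interval -1.82 to 0.24) and -1.16 (SE 0.50, -2.19 to -0.12), each with an edgeR FDR of 1.00. Outside CCGG the differences were -0.81 and -0.90 points, and the larger part of each difference lay inside CCGG, where DBP was at 45.8, 32.5 and 44.8%, the agent at 28.6, 31.0 and 18.5% and BR extract at 20.9, 16.1 and 21.1%.

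The Dapk1 promoter with the agent was at 8.36, 8.34 and 9.46%, against 4.78, 5.13 and 5.84% with DBP alone. The groups did not overlap (exact two-sided permutation p = 0.1), and the log2 odds ratio was 0.77 (SE 0.43, 95% interval -0.13 to 1.66, edgeR FDR 1.00). Outside CCGG the groups overlapped, at 2.95, 3.09 and 0% with the agent and 1.04, 0.614 and 0.623% in DBP. The difference was 1.25 points there and 0.54 points on CpGs read in all 12 samples, in place of 3.47. With BR extract Dapk1 was at 5.22, 4.92 and 4.28%, overlapping DBP, and the difference was 0.20 points outside CCGG and -4.61 points on CpGs read in all 12 samples, in place of -0.44. On all CpGs, 2 of 6 promoters did not overlap for the agent, against 9.11% of all promoters (6.3% higher and 2.81% lower). For BR extract 1 of 6 did not, against 10.1% (2.31% higher and 7.75% lower). Trp53 is in both counts through the same DBP samples.

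For the other 4 promoters the groups overlapped on all CpGs. The log2 odds ratios for the agent were 0.16 for Cdkn2a, 0.33 for Trp73, 0.33 for Cdh1 and 0.03 for Timp3, and for BR extract -0.48, 0.24, 0.19 and -0.13, all with intervals across 0. For Cdkn2a the intervals were -0.53 to 0.84 and -1.18 to 0.22, and for Cdh1 -0.46 to 1.12 and -0.60 to 0.98. For Cdkn2a with BR extract the edgeR p was 0.255, larger than the SE of 0.34 implies, so that interval is too narrow. Outside CCGG the differences for the agent were 0.38 points for Cdkn2a, 0.06 for Trp73, 0.30 for Cdh1 and -0.30 for Timp3, and for BR extract -0.34, 0.48, 0.89 and -0.47 points, each less than the larger SD of its groups. For Cdkn2b, 3 samples a group gave 4.598% ± 2.33 (SD) in DBP, 6.32% ± 0.883 with the agent and 4.54% ± 0.732 with BR extract.

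In the bodies, Trp73 was at 55.5, 55.9 and 57.0% with the agent and 54.7, 54.7 and 52.4% in DBP, which did not overlap, as for 11.7% of all bodies (6.42% higher and 5.3% lower); the difference was 2.20 points and the log2 odds ratio 0.13 (-0.44 to 0.70). For BR extract no body of the 7 was without overlap, against 8.92% of all (4.27% higher and 4.65% lower). The Rarb body with BR extract was at 60.04, 17.3 and 16.4% and rested on sample 1: the difference from DBP was 10.9 points with that sample and -3.49 without it. The Rarb body with the agent differed from DBP by -0.50 points on all CpGs, but by 9.69 points on CpGs with 10 or more reads and by 19.2 points with those CpGs weighted equally. The remaining bodies differed from DBP by 1.89 points or less for either agent, except those of Cdh1 at 2.47 points for the agent and Trp73 at -3.32 points for BR extract, with all groups overlapping. The Trp53 body, which was not in the fit, was at 41.9% ± 10.3 in DBP, 50.03% ± 7.38 with the agent and 61.9% ± 19.2 with BR extract (SD, 3 samples each).

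At single CpGs, 3 of 82 tested CpGs of these genes (3.66%) were DMS between the agent and DBP, where 5.42% of all 127381 CpGs were, and 1 of 72 (1.39%) between BR extract and DBP, where 8.61% of 104443 were. Both shares were below that of all CpGs tested, but they rest on 3 CpGs and 1 CpG, too few to set these genes apart. They also changed when a sample was left out. Without DBP sample 1, 6 of 117 CpGs of these genes were DMS for the agent, against 7150 of 164839 in all. Without DBP sample 3, 6 of 74 were for BR extract, against 9255 of 113528. The 4 sites called with all samples lay in Dapk1 or Trp73. Those of Dapk1 are 14 bp apart in an intron, 82084 and 82098 bp past the gene start (chr13:60785392 and chr13:60785406), in the stretch chr13:60785352-60785447, plus strand.
Dapk1: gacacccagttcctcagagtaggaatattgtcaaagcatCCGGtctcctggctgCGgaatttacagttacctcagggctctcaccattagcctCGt
The first of these is the CpG inside CCGG and the second the CG 14 bp after it. Those of Trp73 are 441 and 464 bp before its start (chr4:153514758 and chr4:153514781), in the stretch chr4:153514718-153514822, minus strand, where 464 bp is inside the second CCGG and 441 bp is the CG after it.
Trp73: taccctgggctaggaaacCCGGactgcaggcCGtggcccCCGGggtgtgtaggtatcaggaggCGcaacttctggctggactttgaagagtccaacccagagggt

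The Dapk1 CpG at chr13:60785406 was at 72.7, 58.8 and 42.9% in DBP and 27.8, 49.0 and 0% with the agent, a difference of -27.9 points (q = 0.00025). The groups overlapped, since agent sample 2 lay above DBP sample 3. In DMSO it was at 36.4, 36.4 and 28.6% (the last from 7 reads) and with BR extract at 42.9, 26.8 and 48.1%. The CpG at chr13:60785392 was the DMS for BR extract, at 38.9, 22.2 and 28.3% against 50, 70.6 and 31.6% in DBP, -20.5 points (q = 0.0028), and it too overlapped through a single sample of each group.

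The Trp73 CpG 441 bp before the start was at 0, 13.3 and 28.6% in DBP and 5.45, 3.57 and 2.38% with the agent, -10.5 points (q = 0.0098). The CpG 464 bp before it went the other way, at 6.67, 30 and 8.33% in DBP and 67.3, 23.1 and 32.4% with the agent, 20.1 points (q = 0.0053). These differences had opposite signs although the CpGs lie close together, and at each of them the groups overlapped. Without the scaling of coverage none of the 4 passed q under 0.01 (q = 0.18, 0.058, 0.031 and 0.18 for Trp73 at 441 and 464 bp and Dapk1 at 60785406 and 60785392), and no member CpG was called by edgeR's test of single CpGs. When each of the 6 samples was left out in turn, the sites were called in 1, 3, 5 and 2 of 6 fits, in the same order. The Dapk1 site at 60785406 was lost only without agent sample 3 (q = 0.057).

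The CpGs read 10 times or more in all 12 samples show how single positions varied. At 198 bp before the Trp73 start (chr4:153514515) none of 685 reads was methylated in any sample, which allows up to 0.438%. The most variable CpG of Trp73 lies in an intron, 60916 bp past the start and inside CCGG (chr4:153453401), and ran from 17.6 to 78.6% with a mean of 59.1% ± 13.6 in DMSO and 47.1% ± 30.3 in DBP (n = 3 per group, SD). That of Timp3, 254 bp past its start in an exon and inside CCGG (chr10:85763371), ran from 0 to 33.3% with 18.5% over 405 reads. At both CpGs a sample had 11 to 90 reads, so the spread includes a large counting error.

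Other genes of the same pathways were read in the same fit. Of 45 genes of the RB and p53 pathways, the RASSF, DAPK, cadherin, retinoid and TIMP families and other genes often methylated in human oral carcinoma, 32 promoters could be tested and 0 were called in any direction over the 4 groups or for DBP against DMSO, at a background of 0.0%. Their mean levels ran from 3.26 to 30.3% with a median of 6.34%, and 28 of 32 were under 10%. Their median log2 odds ratio for DBP against DMSO was -0.27, against -0.06 over all promoters. Of the 32, 1 was at an unadjusted edgeR p under 0.05, against 3.03% of all promoters, so this does not set the list apart. It was Rbl1 (2.40% ± 0.560 in DMSO and 4.35% ± 1.19 in DBP, n = 3 per group, SD, log2 odds ratio 0.93, FDR 1.00).

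The smallest p over the 4 groups belonged to Crabp2, the retinoic acid binding protein of epithelia, Cdh3, which encodes P-cadherin, and Ccnd1, which encodes cyclin D1. Crabp2 was at 16.4% ± 5.43 in DMSO, 13.5% ± 4.07 in DBP, 7.72% ± 0.456 with the agent and 6.93% ± 0.809 with BR extract (n = 3 in each group, SD), with an edgeR FDR of 1.00. Cdh3 was at 8.22, 6.74, 9.001 and 4.94% and Ccnd1 at 7.60, 5.56, 5.56 and 2.99% as group means in the same order, each with an edgeR FDR of 1.00. Outside CCGG the 3 promoters were at 1.86, 1.04 and 0.685% over all calls. The most methylated promoter tested on this list was that of Cdkn1c, an imprinted inhibitor of cyclin-dependent kinases, at 30.3% and, unlike the others named, at 27.4% outside CCGG.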

How the data were processed

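Processed ERRBS files of 12 samples (3 in each of 4 groups) were analysed. The authors trimmed reads with Trim Galore 0.3.3 and aligned them with Bismark 0.10.1 to mm9. The deposited files give, for each CpG cytosine, a percent methylated and the counts of methylated and unmethylated reads; the percent was not used further. Nothing in the sources used here says that PCR duplicates were removed, so intervals and floors cover counting error only. The fixed members and lists were chosen with earlier results of these data known.

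Strands of a CpG were summed. Calls were pooled within 1000 bp of the GENCODE vM1 gene start (promoter) and from 1 kb past the start to the gene's end (body). Regions with 20 or more calls in every sample, not all methylated or all unmethylated, entered edgeR 4.0.16 (R 4.3.3) bisulfite quasi-likelihood fits over all 12 samples, with Benjamini-Hochberg FDR under 0.05; of the 10 genes 6 promoters and 7 bodies passed. Levels were compared by exact two-sided permutation tests (SciPy 1.17.1). For the test of single CpGs, a strand needed 10 or more reads in a sample, under the 99.9th percentile of coverage, before strands were summed. Coverage was scaled to equal medians. CpGs left in all 6 samples compared were tested by a logistic likelihood-ratio test (q under 0.01, over 10 points), after the authors' methylKit settings. Named CpGs were all DMS, and, of CpGs with 10 or more reads in all 12 samples, the nearest to the gene start and the most variable. Pathway genes named were the 3 with the smallest p over the 4 groups, and any called; Rbl1 and Cdkn1c were chosen after their values were seen. The marker symbol Spi1 was not found in the annotation. Tests were tried on simulated data for DBP against DMSO. There edgeR recovered 68 of 100 promoters changed 4-fold in odds and 96 of 100 changed 16-fold (10105 promoters), and called 6 unchanged promoters. All simulated promoters had the same spread between samples, and samples did not differ in the CpGs read. The data differ in both, so these shares need not hold for them. The CpG test recovered 188 of 200 CpGs changed by 40 points (53618 CpGs). Its simulated reads were not scaled and had no spread between samples, unlike the data, so this does not show how it performs on them.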

Additional observations from a re-analysis of the deposited data

How the results depend on the processing

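No promoter and no body was called in any comparison when the minimum was 10 or 50 calls, on CpGs read in all 12 samples or outside CCGG (the last chosen after seeing the data), with 500 bp windows, with only the 6 samples compared, with a replicate block or without any 1 sample (range 0 to 0), among the 10 genes as over all. Exceptions were 1 promoter over the 4 groups and 1 body for DBP against DMSO when only CpGs with 10 or more reads counted. Logistic regression without overdispersion holds no spread between samples in its errors. Of 10507 promoters it called 395, 1073, 2482 and 6553 (DBP against DMSO, agent, BR extract, 4 groups), and of 8845 bodies 1459, 2135, 3450 and 6231. Of the 10 genes it called 0, 1, 1 and 4 of 6 promoters and 1, 0, 2 and 4 of 7 bodies.

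DMS for DBP against DMSO, the agent and BR extract numbered 59, 6906 and 8990. They numbered 34, 14812 and 15022 with a minimum of 5 reads, 57, 2009 and 2400 with 20, 25, 1502 and 1921 without scaling of coverage, 31, 962 and 1042 over 25 points, 315, 10934 and 11938 at q under 0.05, 63, 3644 and 4237 outside CCGG and 0, 1 and 0 by edgeR, which had 1431, 4097 and 3585 at an unadjusted p under 0.05. Of the 10 genes, DMS for the agent and BR extract were 3 of 82 and 1 of 72 CpGs tested. They became 6 of 167 and 4 of 156 with a minimum of 5 reads, and 0 of 26 and 0 of 9 with 20. They were 0 and 0 without scaling, 1 and 0 over 25 points and 5 and 2 at q under 0.05, again of 82 and 72. Outside CCGG they were 1 of 60 and 0 of 54, and by edgeR 0 of 55 and 0 of 47. All CpGs tested numbered 127381 and 104443, but 261621 and 226138 with a minimum of 5 reads and 42015 and 31277 with 20. The number tested therefore changed along with the number called. For DBP against DMSO there were no DMS in the 10 genes. Leaving out 1 sample gave 20 to 127 for DBP against DMSO (20 without DBP sample 1, 127 without DMSO sample 1, 35 without DMSO sample 2 or 3), 6546 to 8196 for the agent and 6898 to 10751 for BR extract. In the 10 genes they numbered 1 to 6 in either agent comparison and 0 to 0 for DBP against DMSO. The agent fits tested 82 to 117 CpGs of the 10 genes and the BR extract fits 72 to 97.

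The labels do not say whether replicate numbers pair the samples. Over 40762 CpGs, deviations from group means correlated at -0.021 to 0.020 between same-numbered samples and at -0.023 to 0.017 between different-numbered ones. No pairing was seen, but counting error adds to these deviations, so this cannot show that the samples were unpaired. The replicate block gave 59, 7170 and 8269 DMS of 53618, 127381 and 104443 CpGs, and 0, 4 and 1 of 22, 82 and 72 in the 10 genes. Differences in level moved by more than the larger group SD in 37 of 468 recomputed values (431 did not), 9 on CpGs read in all 12 samples, 9 on CpGs with 10 or more reads, 12 with CpGs weighted equally and 7 outside CCGG; restricted to CpGs read in all 12 samples, 16 of 36 changed sign. The cause was not tested. Too few calls kept the Cdkn2b promoter (DMSO sample 3), the Rassf1 promoter (DMSO sample 3 and DBP sample 2) and the Fhit (every sample) and Rarb (every sample but BR extract sample 1) promoters out of the test.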
